A study of Mus musculus with 8 samples.

Results

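Livers of Tob1 null mice were compared with livers of wild type mice before any surgery. The comparison used 4 of the 8 arrays of the series, 2 labelled Tob1 null and 2 labelled wild type, and covered all 14450 genes that passed a filter on low signal. Each array was hybridised with liver RNA pooled from 3 animals, and no animal was shared between arrays. All animals were described as male, as 7 to 10 weeks old and as C57BL/6, the background on which the null line was kept. The other 4 arrays came from the same genotypes 24 h after partial hepatectomy and entered here through the shared estimate of the spread and in a comparison given at the end. The labels record neither the hour of day nor the feeding state at which livers were taken, and they do not say how the wild type animals were related to the null line.

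Tob1 is an antiproliferative protein of the BTG/TOB family. Its members bind the deadenylase subunits Cnot7 and Cnot8 of the CCR4-NOT complex and, through it, shorten the poly(A) tails of target transcripts; Tob1 also binds Smad proteins and restrains BMP signalling. The series title describes Tob1 as a constitutively active brake on liver regrowth, so the unoperated organ is the state from which regrowth starts. Adult liver at rest is made mostly of quiescent hepatocytes whose transcripts follow the day, feeding and sex hormones.

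Levels are quantile normalised log2 signals, and level pairs give arrays 1 and 2 of wild type before arrays 1 and 2 of the null-labelled group. Counts with 1 array left out are given in that order too. Leaving out an array also changes the count over all genes, as given below. A change in a list's leave-out count is therefore not by itself a trait of its members. Differences are log2 values, null-labelled minus wild type, given ± SE from the linear model, and p is unadjusted unless it is called adjusted. With 2 arrays against 2, an exact permutation test cannot give a p below 0.333, so the tests rest on the model, which takes each gene's spread from all 8 arrays.

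The null label was not borne out by the array. Tob1 has 2 probe sets. The brighter one read 10.46 and 10.53 in the wild type arrays against 11.10 and 11.03 in the null-labelled ones, a difference of 0.57 ± 0.15 (adjusted p = 0.403). The dimmer one read 5.19 and 4.02 in wild type against 2.65 and 4.06, a difference of -1.25 ± 0.68 (adjusted p = 0.728 over all probe sets). So the bright probe set read higher in both null-labelled arrays, and the dim one overlapped between the groups. The labels do not say which part of the gene was removed, so a probe set outside that part would not check the label, and the arrays are called null-labelled throughout.

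Array 1 of the null-labelled pair went against its label in another way. Xist, the transcript that silences one X chromosome in female cells, read 7.94 there and between 3.00 and 4.48 on the other 7 arrays, all labelled male. Y-linked genes were the lowest or near the lowest of all arrays there. Eif2s3y read 8.02 against 8.53 to 9.51 elsewhere, and Uty read 6.27 against 6.72 to 7.25. Transcripts that are far more abundant in female than in male mouse liver were also high on this array. Sult2a2 read 9.90, against 2.53 on null-labelled array 2 and 1.74 and 3.08 in wild type. Cyp2b13 read 7.68 against 2.98 to 4.24 on the other 7 arrays, and Hao2, which did not pass the filter, read 7.22 against 1.71 to 3.51. The metallothionein Mt2 read 10.70, against 7.93 on null-labelled array 2 and 8.04 to 8.41 in wild type. For these genes the first null-labelled array stood alone at 0 h. The counts of the gene lists below are therefore given without it as well; a fit without it leaves 1 array in the group and borrows its spread from the remaining groups.

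**Figure D1:**
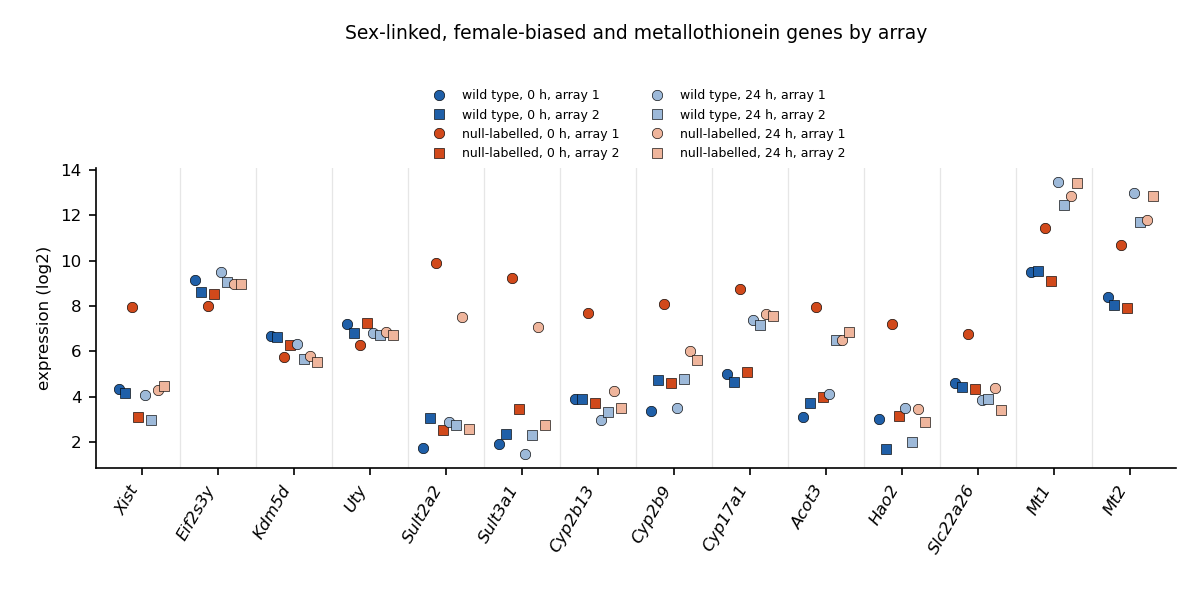
Level (log2, y axis) of Xist, 3 Y-linked genes, 8 genes that are more abundant in female liver and both main metallothioneins on each of the 8 arrays (points; colour gives genotype and time, shape the array number). Null-labelled array 1 at 0 h (dark orange circle) has the highest Xist, 7.94, and the highest Sult2a2, 9.90, of all arrays.

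The balance of signal along control transcripts also differed between the groups. The signal of the 3' over the 5' probe set of actin, which rises as RNA degrades or is copied less completely, was 1.59 and 1.54 (log2) on the null-labelled arrays and 1.04 and 1.40 in wild type. For Gapdh it was 0.54 and 0.51 against 0.18 and 0.28. Both null-labelled arrays lay above both wild type arrays, and the part of this in the results below was not tested. Hepatocyte markers were strong throughout. All 15 passed the filter, and their summed linear signal was 63643 to 67369 in wild type and 66240 to 67923 in the null-labelled arrays.

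No gene passed an adjusted p under 0.05 (limma, Benjamini-Hochberg over 14450 genes), and the smallest adjusted p was 0.0943, for Igfbp1. At an unadjusted p under 0.05, 1390 genes differed (9.62% of those tested), 703 of them higher in the null-labelled livers (4.87%) and 687 lower (4.75%). Of these, 345 had p under 0.01 and 43 p under 0.001. The shares of 4.87% higher and 4.75% lower are the background for every list count below. A count near them says nothing particular about a list. A difference of at least 2-fold with p under 0.05 was seen for 133 genes that read higher and 122 that read lower. Only 56 and 37 of them had both group means above the filter limit of 3.60. The median SE was 0.205 and the median 95% interval reached 0.50 to either side of the difference. Other settings called between 0 and 13 genes, 13 with a trended and robust prior. Without null-labelled array 1, 869 genes had p under 0.05, 379 higher (2.62%) and 490 lower (3.39%), of which 549 were among the 1390. Without wild type array 1, 506 read higher and 368 lower at that threshold. Of the 100 genes named here that had p under 0.05, 59, 73, 58 and 69 kept it with the same sign when the 4 arrays at 0 h were left out in turn, so calls near the threshold depend on single arrays. For these 100, a difference that moved by over 1.5 times is given with its value beside it. They were picked by the rule given at the end, so genes named in addition are not among them. Named genes with p above 0.05 could also move that far over the alternatives, as Socs2 (0.52 to 2.25) and Cyp17a1 (0.24 to 3.91) did.

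**Figure D2:**
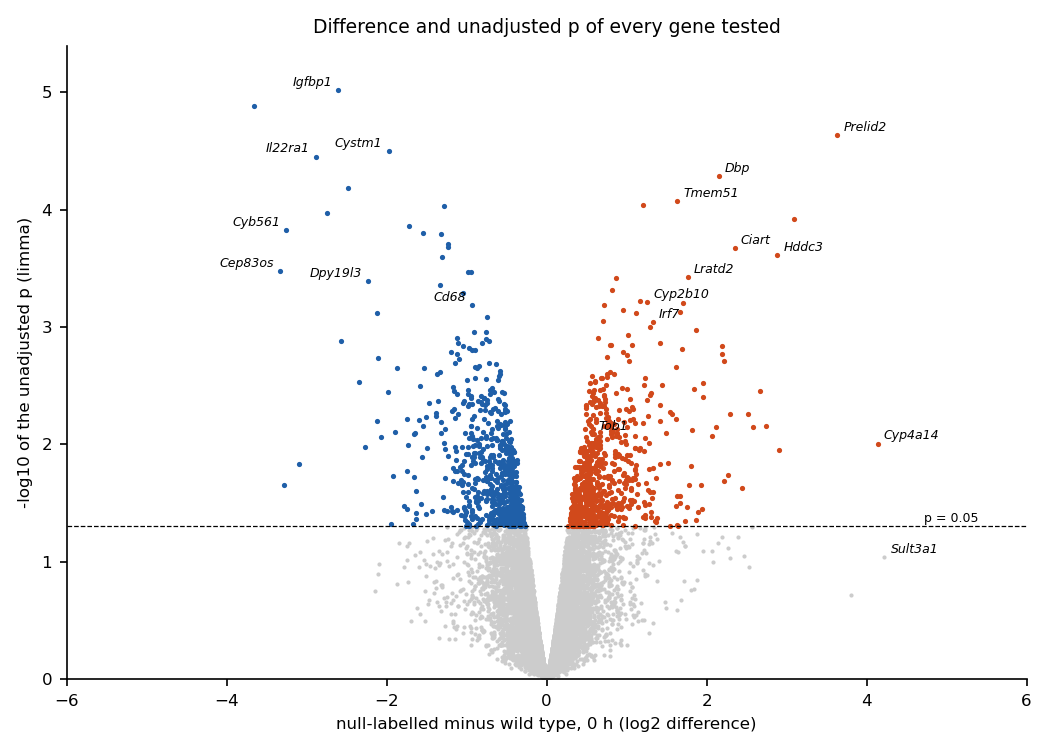
Log2 difference, null-labelled minus wild type at 0 h (x axis), against -log10 of the unadjusted p from limma (y axis) for each of the 14450 genes (points). Orange and blue points are the 703 higher and 687 lower genes with p under 0.05 (dashed line); Igfbp1 has the smallest p, and none of the genes passed after adjustment.

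Among the genes that read higher, the smallest p belonged to Prelid2, a member of the PRELI family of lipid transfer proteins. It read 2.91 and 2.84 in wild type against 6.57 and 6.43 in null-labelled liver, a difference of 3.63 ± 0.31 (adjusted p = 0.102). Both wild type values lay under the filter limit, so its fold of 12.4 rests on a dim group. A less bright probe set of Prelid2 differed by only 0.34. Hddc3, which encodes a hydrolase related to the bacterial stringent response enzymes, read 3.29 and 4.34 in wild type against 6.73 and 6.68 in null-labelled liver (2.88 ± 0.37, adjusted p = 0.172). Its other probe set did not follow, at -0.07. Both genes separated the groups by more than 2 log2 units on every pair of arrays, and for both the result rests on 1 probe set.

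Brighter genes differed by less, with arrays of a group close together. Tmem51 read 6.79 and 6.83 in wild type against 8.51 and 8.36 in null-labelled liver (1.63 ± 0.17, adjusted p = 0.133). Axin1, the scaffold of the complex that destroys beta-catenin, read 5.18 and 5.38 against 6.51 and 6.46 (1.21 ± 0.13, adjusted p = 0.133), while its second probe set differed by 0.34. Cyp2b10, the cytochrome P450 best known as a target of the receptor CAR, read 8.33 and 8.66 against 9.65 and 9.85 (1.25 ± 0.19, adjusted p = 0.27). Its other probe sets read higher too, by 1.23 and 1.18. Apoa4, an apolipoprotein of triglyceride-rich particles, read 8.33 and 8.43 against 9.78 and 9.31 (1.16 ± 0.18), and its other probe set differed by 1.32. In all of these the null-labelled arrays lay above both wild type arrays, and array 1 was not needed for any: without it the differences were 1.55, 1.18, 1.35 and 0.93, in the same order. Lratd2 (1.76 ± 0.25), Pramel32 (0.87 ± 0.12), Extl1 (1.70 ± 0.26), an exostosin-like glycosyltransferase, and Rad1 (0.71 ± 0.11), a subunit of the 9-1-1 checkpoint clamp, completed the 12 genes with the smallest p in this direction together with the clock genes Dbp and Ciart given below. Of these, Extl1 was dim, at 2.95 and 3.22 in wild type, both under the filter limit. Pramel32 lay just above the limit there, at 3.81 and 3.74.

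The largest differences among genes above the limit in both groups were less even between arrays. Cyp4a14, a fatty acid hydroxylase induced through PPAR-alpha, read 4.45 and 8.11 in wild type against 10.80 and 10.04 in null-labelled liver (4.14 ± 1.11, adjusted p = 0.415), and without wild type array 1 it differed by 2.31. The wild type arrays differed from each other by more than the nearer of them differed from either null-labelled array. Angptl8, an insulin-induced inhibitor of lipoprotein lipase, read 7.31 and 8.31 against 10.36 and 9.65 (2.20 ± 0.40, adjusted p = 0.347). Pik3c2g, a class II phosphoinositide 3-kinase of hepatocytes, read 3.55 and 4.35 against 6.13 and 6.20 (2.21 ± 0.42, adjusted p = 0.382). Serpinb1a, an inhibitor of neutrophil proteases, differed by 2.59 ± 0.65 and Cyp2g1 by 2.27 ± 0.71, each with wild type arrays over 1 log2 unit apart. Serpinb1a differed by 1.58 without wild type array 1, and Cyp2g1 by 1.33 without null-labelled array 1.

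Among the genes that read lower, Igfbp1 led. This secreted protein binds insulin-like growth factors, and insulin represses its transcription in hepatocytes. It read 11.36 and 11.55 in wild type against 8.82 and 8.88 in null-labelled liver, a difference of -2.60 ± 0.19 with a 95% interval of -3.07 to -2.14 (adjusted p = 0.0943). The arrays of each group lay within 0.2 of each other, and the groups were 6.08-fold apart. Cystm1 read 7.43 and 7.46 against 5.28 and 5.66 (-1.97 ± 0.18, adjusted p = 0.102), but its other probe set differed by -0.12. Dpy19l3, an enzyme that attaches mannose to tryptophan, read 6.56 and 6.59 against 4.0 and 4.68 (-2.23 ± 0.32), and its other probe sets differed by -1.50 and -1.23. Igfbp1 is measured by 1 probe set, and all 3 probe sets of Dpy19l3 were lower on average. Neither gene passed the adjusted threshold.

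Further genes that read lower spanned a wide range of levels. Cyb561, a membrane electron carrier, read 5.38 and 5.87 in wild type against 2.86 and 1.88 in null-labelled liver (-3.25 ± 0.39, adjusted p = 0.145). Both of its null-labelled values lay under the filter limit. Il22ra1, the receptor chain through which hepatocytes respond to interleukin 22, read 3.61 and 3.73 against 0.52 and 1.06 (-2.88 ± 0.26), with its higher group only at the filter limit. Fabp7, a fatty acid binding protein, read 5.85 and 5.88 against 4.67 and 4.50 (-1.28 ± 0.14, adjusted p = 0.133). Like Fabp7, Kdf1 (-1.24 ± 0.15) and Tnfaip8 (-0.94 ± 0.13) had both groups above the limit. Plb1, Slc35f3, Il21r, Dkk3 and Cep83os differed by -3.33 to -1.24 with at least 1 group below it. Ldha, the lactate dehydrogenase subunit of glycolysis, was among the largest by size at -1.67 ± 0.67, but it read 11.58 and 13.88 in wild type against 11.01 and 11.12, and it differed by -0.52 without wild type array 2 and by -2.82 without wild type array 1. Tmem267 (-1.64 ± 0.62) and Cib3 (-1.59 ± 0.39) were the others of large size.

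**Figure D3:**
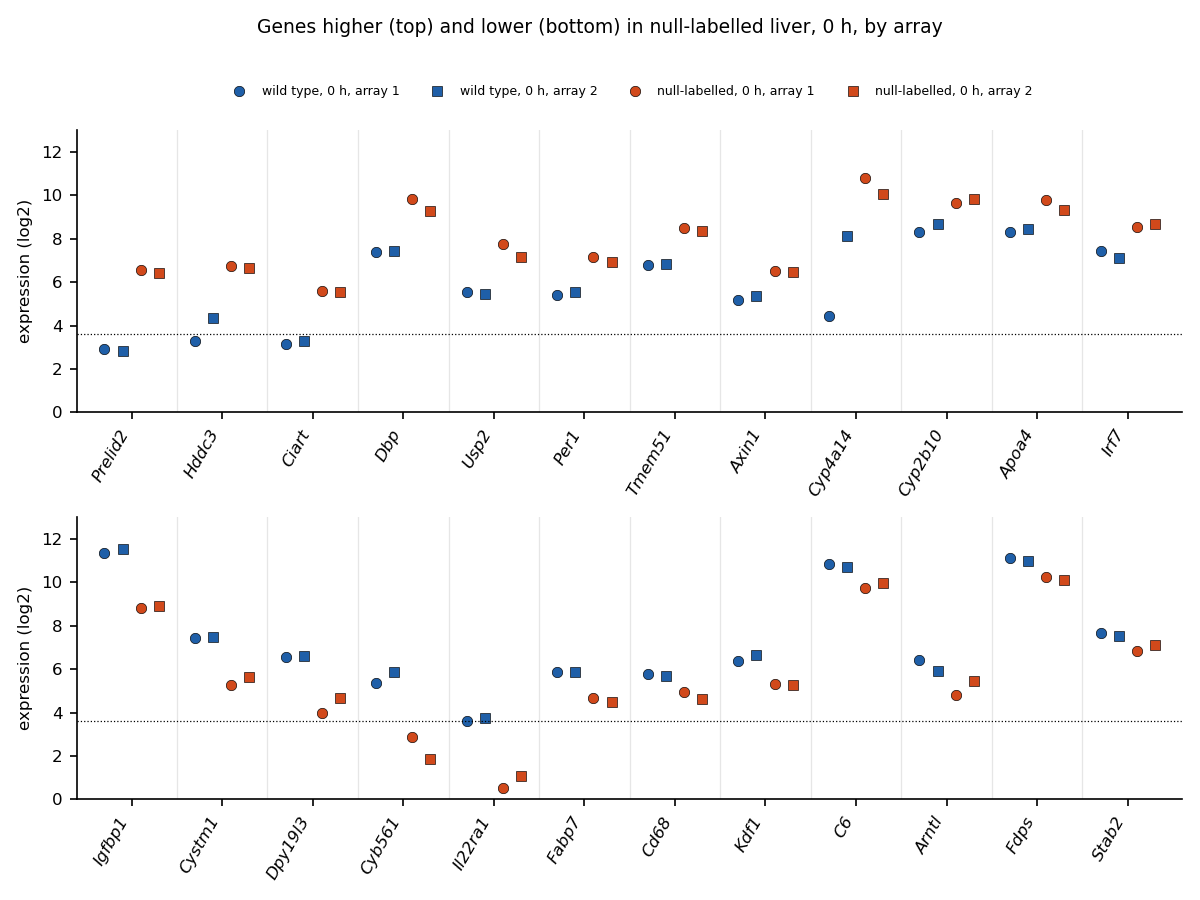
Level (log2, y axis) of 12 genes that read higher (top) and 12 that read lower (bottom) in null-labelled liver at 0 h, on each of the 4 arrays (points; blue wild type, orange null-labelled, circles array 1, squares array 2; the dotted line is the filter limit of 3.60). Both null-labelled points lie on the same side of both wild type points for every gene drawn, as in Igfbp1 at 8.82 and 8.88 against 11.36 and 11.55.

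Genes of the circadian clock differed in both directions. The clock is a loop in which Arntl (BMAL1) with Clock or Npas2 switches on Per and Cry genes, the Rev-erb gene Nr1d1, Ciart and output factors such as Dbp. Their proteins then repress the loop, with Nr1d1 acting on Arntl itself, so that Arntl and its targets peak at opposite times of day. Of 21 clock genes measured, 6 read higher and 2 lower at p under 0.05 (4.87% and 4.75% of all genes). Their median difference was 0.16, against 0.01 over all genes tested. The largest differences were those of Ciart, Dbp, Usp2 and Per1, all higher. Dbp read 7.38 and 7.44 in wild type against 9.84 and 9.27 in null-labelled liver (2.15 ± 0.21, adjusted p = 0.125), and its other probe set differed by 2.14. Ciart read 3.16 and 3.30 against 5.60 and 5.55 (2.35 ± 0.30, adjusted p = 0.162), and Per1 read 5.42 and 5.55 against 7.18 and 6.91 (1.56 ± 0.37, adjusted p = 0.387). Both wild type values of Ciart lay under the filter limit of 3.60, and its difference ranged from 1.33 to 2.42 over the alternatives. The protease gene Usp2, which follows the clock in liver, read 5.56 and 5.47 against 7.78 and 7.16 (1.95 ± 0.43, adjusted p = 0.387). These 4 were separate by more than 1 log2 unit between the nearest arrays of the groups.

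Other clock genes are named here after their values were seen. Arntl read 6.43 and 5.91 in wild type against 4.79 and 5.45 in null-labelled liver (-1.05 ± 0.29, adjusted p = 0.415), and Npas2 differed by -0.47 ± 0.15 (adjusted p = 0.456). Nr1d1 (0.98 ± 0.33, adjusted p = 0.48) and the kinase gene Csnk1e (0.52 ± 0.20, adjusted p = 0.51) read higher. Arntl and its partner Npas2 thus lay below wild type on both null-labelled arrays, and Dbp, Ciart, Per1 and Nr1d1 above it. The calls of Arntl and Nr1d1 depended on single arrays, being lost without null-labelled array 1 or wild type array 1. That of Npas2 was lost without each of the arrays at 0 h other than null-labelled array 1, and that of Csnk1e without each other than wild type array 2. Clock (-0.18 ± 0.21), Cry1 (-0.28 ± 0.27), Per2 (0.37 ± 0.29), Per3 (-0.32 ± 0.17) and Nr1d2 (0.20 ± 0.17) had p above 0.05, with Cry1 and Per3 on the lower side. With each array left out in turn, 4, 6, 4 and 6 clock genes read higher and 1, 2, 1 and 2 lower, and the median without null-labelled array 1 was 0.02. Dbp (1.87) and Ciart (2.32) were among the 4 without that array. At 24 h after hepatectomy Ciart (1.39) and Usp2 (1.56) again read higher in the null-labelled arrays, while Dbp differed by -0.58 and Per1 by -0.41.

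The promoters of these genes were searched for the letters the clock factors are known to bind, since members of the loop lay on opposite sides. Windows of 300 bases around a gene's start, most of it upstream, were taken from RefSeq (build GRCm38.p6) and matched for 18 of the 21 genes, the others being Bhlhe40, Csnk1d and Per2. The E-box CACGTG, bound by Arntl with Clock, was found in a window of 5 of the 18 (Bhlhe41, Ciart, Cry1, Per1 and Tef), against 11.0% of 11555 tested genes with a window and 7.15% of all windows. The D-box, TTATGTAA or TTATGCAA, bound by Dbp, was found for 2 of 18 (Per1 and Per3), against 1.46% of tested genes and 1.66% of windows. AGGTCA, the core letters of the site of Nr1d1 and of the ROR receptors, was found for 5 of 18 (Arntl, Clock, Nfil3, Nr1d2 and Per1), against 15.9% and 16.3%. Both strands were read, and the D-box overlaps neither of the others in the windows shown. The Ciart window (chr3:95882179-95882478, minus strand) holds 3 E-boxes, more than any other shown, and the Per1 window (first of 2 starts, chr11:69098699-69098998, plus strand) holds an E-box, an AGGTCA on the opposite strand and a D-box. The Arntl window (second of 2 starts, chr7:113207261-113207560, plus strand) holds AGGTCA only. Neither the Dbp nor the Usp2 window held any of the motifs, which says only that these letters are not within it. Capitals mark the motifs, and each sequence runs 5' to 3' on the gene's strand.
Ciart: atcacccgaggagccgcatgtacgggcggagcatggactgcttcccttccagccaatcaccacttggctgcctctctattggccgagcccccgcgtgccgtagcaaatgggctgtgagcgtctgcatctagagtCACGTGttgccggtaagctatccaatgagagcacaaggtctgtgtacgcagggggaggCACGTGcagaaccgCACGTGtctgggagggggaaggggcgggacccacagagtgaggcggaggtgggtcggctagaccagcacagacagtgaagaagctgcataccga
Per1: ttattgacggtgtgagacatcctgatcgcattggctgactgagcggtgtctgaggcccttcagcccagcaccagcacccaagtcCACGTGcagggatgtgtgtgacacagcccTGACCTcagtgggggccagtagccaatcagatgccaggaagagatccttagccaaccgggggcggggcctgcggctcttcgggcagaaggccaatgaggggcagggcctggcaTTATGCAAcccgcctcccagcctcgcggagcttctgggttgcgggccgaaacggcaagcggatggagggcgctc
Arntl: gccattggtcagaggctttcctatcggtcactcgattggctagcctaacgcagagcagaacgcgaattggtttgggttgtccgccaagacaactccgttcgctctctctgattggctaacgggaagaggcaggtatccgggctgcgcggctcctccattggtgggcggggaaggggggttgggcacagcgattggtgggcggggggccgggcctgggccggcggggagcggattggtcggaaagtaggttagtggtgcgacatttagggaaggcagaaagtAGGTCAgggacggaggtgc

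Genes that report on insulin and growth hormone differed in both directions. Of 18 genes of this axis, 1 read higher and 2 lower at p under 0.05 (4.87% and 4.75% of all genes), with a median of 0.09. Leave-outs gave 1, 2, 1 and 1 higher and 2, 1, 2 and 1 lower. Next to Igfbp1, described above, Irs2, an insulin receptor substrate whose transcription insulin also represses, read 5.41 and 5.86 in wild type against 4.51 and 4.71 in null-labelled liver (-1.03 ± 0.38, adjusted p = 0.51). Cish, a feedback inhibitor induced by growth hormone through Stat5, read 6.54 and 6.32 against 7.16 and 7.34 (0.82 ± 0.21, adjusted p = 0.399). Socs2, of the same kind, read 6.49 and 8.21 against 8.97 and 8.49 (1.38 ± 0.61, adjusted p = 0.551), with wild type arrays far apart. The hormone Igf1 itself (-0.05 ± 0.13) and the growth hormone receptor Ghr (-0.07 ± 0.32) had adjusted p of 0.937 and 0.972. In the list of 24 genes of glucose metabolism 1 read higher and 2 lower, against the same shares of all genes. It shares Igfbp1 and Irs2 with the axis above. The transporter Slc2a2 read higher (0.34 ± 0.11, adjusted p = 0.488), the glycogen synthase Gys2 differed by 0.26 ± 0.12 (adjusted p = 0.56), and the median was -0.0035. No gene of that list read higher with any 1 of the 4 arrays left out, and 3, 1, 1 and 1 read lower.

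Chaperones and other genes of protein folding in the endoplasmic reticulum are raised by the unfolded protein response through Xbp1, Atf6 and Atf4. Of 27 measured, 6 read higher and none lower at p under 0.05 (4.87% and 4.75% of all genes), and the median was 0.25. Both null-labelled arrays lay above both wild type arrays for 15 (24.2% of all genes did so). Ddit3 (CHOP), a transcription factor induced by Atf4, read 5.51 and 5.91 in wild type against 6.91 and 6.76 in null-labelled liver (1.12 ± 0.18, adjusted p = 0.28), although its other probe set differed by -0.02. Syvn1, a ubiquitin ligase of the degradation pathway, read 8.62 and 8.71 against 9.84 and 9.39 (0.95 ± 0.18, adjusted p = 0.355). The co-chaperone Dnajb9 read 9.25 and 9.79 against 10.61 and 10.63 (1.10 ± 0.30, adjusted p = 0.415), and Creld2 differed by 0.90 ± 0.26 (adjusted p = 0.419). The 4 genes were separate between the groups on all arrays. The abundant chaperones differed by less, with Hspa5 (BiP) at 0.25 ± 0.15, Hsp90b1 at 0.18 ± 0.17 and P4hb at -0.01 ± 0.12, each with p above 0.05. The leave-outs gave 3, 5, 4 and 5 higher and 0 lower, with a median of 0.19 without null-labelled array 1. At 24 h the median was 0.02.

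Cytosolic heat shock chaperones showed 3 of 20 higher and none lower (4.87% and 4.75% of all genes), with a median of 0.16. Hspa1b, an inducible Hsp70, read 8.71 and 9.17 in wild type against 10.10 and 9.95 in null-labelled liver (1.09 ± 0.39, adjusted p = 0.505), and its partners Bag3 (0.77 ± 0.24) and Dnajb1 (1.03 ± 0.38) were the others; Dnajb4 differed by 0.35 ± 0.15 (adjusted p = 0.534). With each array left out, 0, 3, 0 and 1 of the 20 read higher, and the median without null-labelled array 1 was 0.13, where Bag3 differed by 0.51. The proteasome list had a median of -0.07 over 31 subunits, with 1 lower, Psmd13 (-0.47 ± 0.12), and 0 lower without wild type array 2.

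Interferon response genes were higher on both null-labelled arrays more often than lower. Of 29, 5 read higher and none lower at p under 0.05 (4.87% and 4.75% of all genes). In all, 17 separated the groups upward and 0 downward (24.2% and 23.9% of all genes), and the median was 0.23. Irf7, the transcription factor that amplifies the interferon response, read 7.46 and 7.11 in wild type against 8.53 and 8.69 in null-labelled liver (1.32 ± 0.22, adjusted p = 0.312). Usp18, which restrains interferon receptor signalling, differed by 0.53 ± 0.17, the RNA sensor Oas1a by 0.51 ± 0.16, Ifit2 by 0.44 ± 0.15 and Ifi27 by 0.36 ± 0.14. Other canonical members were Ifit1 (0.07 ± 0.20), Ifit3 (-0.005 ± 0.24) and Rsad2 (0.06 ± 0.16), with adjusted p between 0.94 and 0.997. Leaving out the arrays in turn gave 2, 2, 5 and 2 higher and 0, 1, 0 and 0 lower, with a median of 0.16 without null-labelled array 1. The count of 5 thus fell to 2 without any 1 of the other 3 arrays. At 24 h, on other animals, 11 of the 29 read higher and 0 lower (6.4% and 5.33% of all genes), Irf7 (1.08) and Usp18 (1.55) among them.

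Nrf2 targets, which detoxify electrophiles, included 6 of 19 that read higher and 1 that read lower (4.87% and 4.75% of all genes). Their median was 0.19. The glutathione transferases Gstm1 (12.43 and 12.67 against 13.03 and 13.06) and Gstm3 (10.34 and 10.60 against 10.95 and 11.04) differed by 0.49 ± 0.15 and 0.53 ± 0.16. The quinone reductase Nqo1 read 5.61 and 6.30 against 7.18 and 6.84 (1.05 ± 0.35, adjusted p = 0.481), and the efflux pumps Abcc3 (0.46 ± 0.16) and Abcc4 (0.52 ± 0.20) read higher. Without wild type array 1 these pumps differed by 0.27 and 0.30, and Abcc4 by 0.32 without null-labelled array 2. Me1, a lipogenic enzyme that the list shares with fatty acid synthesis, was the gene that read lower (-0.42 ± 0.16), and its other probe set differed by -0.15. The classical targets Hmox1 (-0.14 ± 0.31) and Gclc (0.02 ± 0.27) had adjusted p of 0.931 and 0.987. With the arrays left out in turn, 0, 5, 2 and 1 read higher and 1, 0, 0 and 0 lower. At 24 h, 9 of the 19 read higher and 1 lower (6.4% and 5.33% of all genes), and Gstm3 differed by 2.58.

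Across 36 cytochromes P450 and other drug-metabolising enzymes, 3 read higher (Cyp2b10, Cyp2c55 and Cyp4a14) and 0 lower, against 4.87% and 4.75% of all genes. The median was 0.03. Cyp2c55 read 7.87 and 8.12 in wild type against 8.41 and 8.94 in null-labelled liver (0.68 ± 0.24). It differed by 0.41 without null-labelled array 2 and by 3.22 at 24 h. The leave-outs gave 2, 3, 3 and 5 higher and 1, 0, 0 and 0 lower. Among 31 conjugating enzymes 4 read higher and 0 lower (4.87% and 4.75% of all genes), with a median of 0.12. Besides Gstm1 and Gstm3, the 4 were Gstt2 (0.93 ± 0.25) and the sulphotransferase Sult1c2 (0.91 ± 0.33). Here 1, 4, 1 and 5 read higher with an array left out. Without wild type array 1 Gstt2 differed by 0.61 and Sult1c2 by 0.42, and Sult1c2 by 1.40 without wild type array 2. The flavin oxygenase Fmo5 differed by -0.25 ± 0.12 (adjusted p = 0.571).

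Several sex-biased liver genes were far from wild type on null-labelled array 1. Of 17 genes more abundant in female liver, 16 had a positive difference (7418 of all 14450 did) with a median of 0.56, yet only 1, Atp6v0d2 (0.56 ± 0.22), had p under 0.05. Atp6v0d2 differed by 0.27 without null-labelled array 1 and by 0.86 without array 2. Sult3a1 read 1.91 and 2.35 in wild type against 9.24 and 3.47 in null-labelled liver (4.22 ± 2.10, adjusted p = 0.583). Cyp2b9 read 3.38 and 4.73 against 8.09 and 4.60, and Cyp17a1 5.02 and 4.67 against 8.76 and 5.08. In each of the 3 only array 1 was far above wild type, and the median without it was 0.24. The leave-outs gave 0, 1, 0 and 6 genes higher. At 24 h the other null-labelled array 1 read 7.50 for Sult2a2 and 7.08 for Sult3a1, against 2.57 and 2.74 on its partner. Among 21 genes more abundant in male liver 0 read higher and 3 lower, with a median of -0.19, and of 0.02 without array 1. With an array left out, 2, 3, 2 and 4 read lower. The complement gene C6 read 10.82 and 10.71 in wild type against 9.76 and 9.98 in null-labelled liver (-0.90 ± 0.16, adjusted p = 0.355), and it differed by -0.78 without array 1. Moxd1 read 7.13 and 4.56 against 3.33 and 2.18 (-3.09 ± 0.91; -1.80 without wild type array 1). Capn8 differed by -0.89 ± 0.26, by -0.57 without null-labelled array 1 and by -0.29 at its other probe set. The large male-specific transcripts Cyp4a12a (0.20 ± 0.15), Hsd3b5 (-0.02 ± 1.10) and Cyp7b1 (-0.38 ± 0.16) had p above 0.05.

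Of 22 genes of cholesterol synthesis and handling, 17 had a negative difference (7032 of all 14450 genes did), with a median of -0.32. Both null-labelled arrays lay below both wild type arrays for 14 and above for 0, against 23.9% and 24.2% of all genes. The number with p under 0.05 was 1: Fdps, which makes farnesyl diphosphate, read 11.12 and 10.98 in wild type against 10.25 and 10.09 in null-labelled liver (-0.88 ± 0.36, adjusted p = 0.519). Hsd17b7 (-0.49 ± 0.21), Msmo1 (-0.63 ± 0.35) and Tm7sf2 (-0.23 ± 0.12), all late enzymes of the pathway, had adjusted p of 0.539, 0.62 and 0.589. The other probe sets of Hsd17b7 differed by -0.80, at p under 0.05, and by -0.49 and 0.14. The leave-outs gave 0, 0, 1 and 0 lower. That call was Hsd17b7, not Fdps. The regulators lay near zero, with Srebf2 at 0.04 ± 0.16 and Insig1 at 0.08 ± 0.27. The median ranged from -0.38 to -0.22 over all alternatives and was 0.25 at 24 h. These genes are induced together by Srebf2, so their values are not independent measurements.

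Other lipid genes were mixed. Among 26 genes of fatty acid and triglyceride synthesis 1 read higher and 3 lower (median -0.05). Thrsp (Spot 14), a lipogenic protein raised by carbohydrate feeding and thyroid hormone, read 11.13 and 10.74 in wild type against 12.33 and 11.58 in null-labelled liver (1.02 ± 0.30, adjusted p = 0.431), while its other probe sets differed by 1.06 and -0.44; without null-labelled array 1 it differed by 0.65. Agpat2 (-0.40 ± 0.14) and Elovl1 (-0.39 ± 0.15) read lower with Me1. With an array left out, 2, 0, 0 and 1 of the 26 read higher and 1, 0, 0 and 0 lower. Of 33 genes of fatty acid oxidation and ketogenesis, Cyp4a14 read higher and Cpt2, a carnitine transferase of the mitochondrial membrane, lower (-0.48 ± 0.14); Ech1 differed by -0.34 ± 0.14 (adjusted p = 0.525), and Acot3 read 3.11 and 3.75 against 7.96 and 3.97, again high on array 1 alone. The median of this list was 0.01, and the leave-outs gave 1, 1, 1 and 2 higher and 1, 0, 0 and 1 lower. In bile acid synthesis and transport 3 of 32 read higher and 1 lower, against 4.87% and 4.75% of all genes (median 0.04). The transporters Slco1a4 (0.82 ± 0.26), Abcc3 and Abcc4 were higher and the sterol hydroxylase Cyp27a1 lower (-0.41 ± 0.12, adjusted p = 0.418). Slco1a4 differed by 0.57 without null-labelled array 1. For this list the leave-outs gave 1, 2, 2 and 1 higher and 0, 1, 0 and 3 lower.

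**Figure D4:**
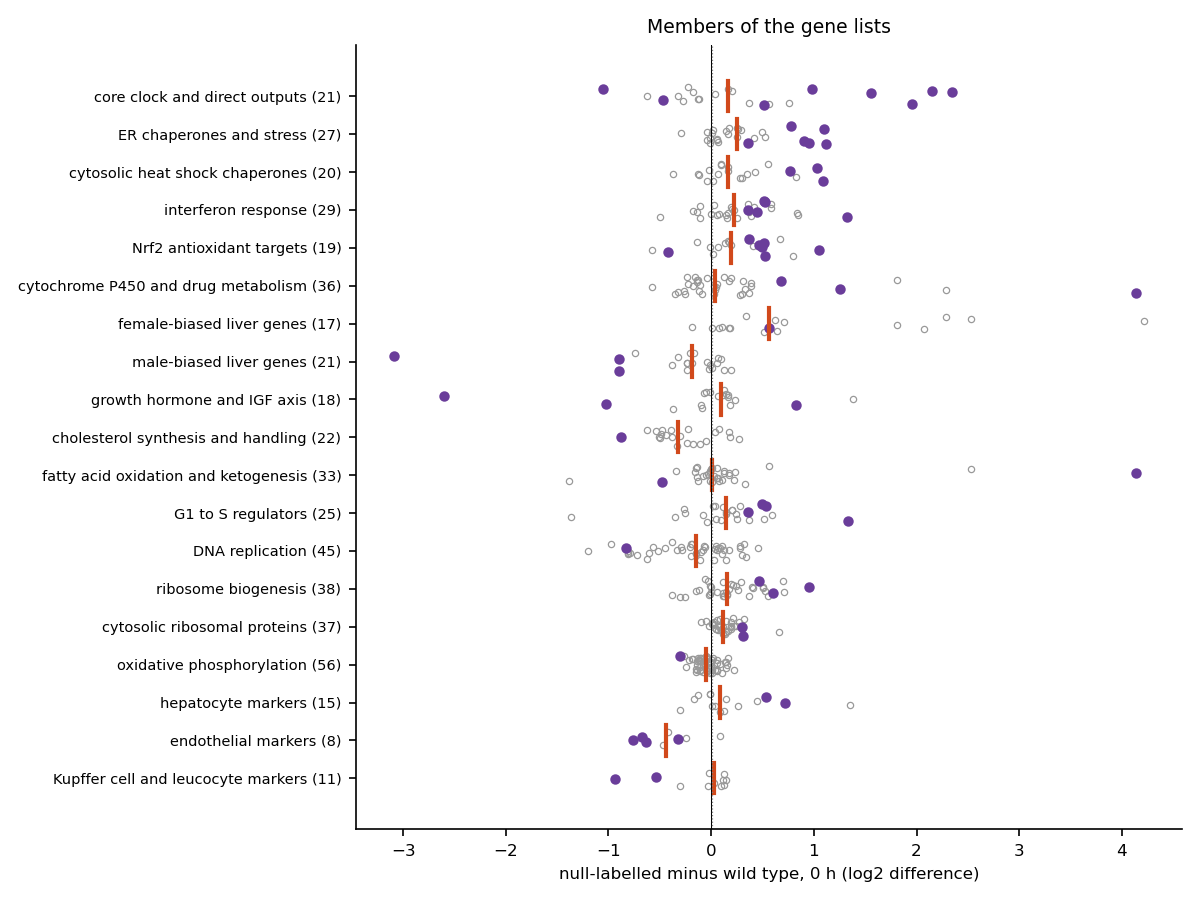
Log2 difference at 0 h (x axis) of each measured member (points) of 19 gene lists, with the number of members in brackets; filled points have an unadjusted p under 0.05, bars are list medians, and the dotted line is the median of all genes, 0.01. Medians run from -0.44 for endothelial markers to 0.56 for female-biased genes, the latter 0.24 without null-labelled array 1.

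A few genes of entry into the cell cycle read higher. Of 25 G1 to S regulators 4 read higher and 0 lower (4.87% and 4.75% of all genes), with a median of 0.15. Ccnd1, the cyclin whose rise carries hepatocytes into G1, read 6.41 and 7.18 in wild type against 8.73 and 7.53 in null-labelled liver (1.34 ± 0.45, adjusted p = 0.485), and its other probe sets differed by 1.45 and 0.95. Its kinase Cdk4 read 7.74 and 7.80 against 8.29 and 8.32 (0.53 ± 0.11, adjusted p = 0.387). Ccne1 (0.49 ± 0.18) and the inhibitor Cdkn1b (0.36 ± 0.12) were the others, though the other probe set of Cdkn1b differed by -0.16. The leave-outs gave 2, 2, 1 and 2 higher and 0, 0, 1 and 0 lower. Without null-labelled array 1, Cdk4 read higher and Cdkn1c, an inhibitor named after its values were seen, lower (4.20 and 3.92 against 3.89 and 1.50). Ccnd1 then differed by 0.73 and Cdk4 by 0.55. Of 39 genes of G2 and mitosis, Cks1b (7.86 and 8.14 against 8.98 and 9.08; 1.03 ± 0.20) and the dim Aurkb (0.88 ± 0.22) read higher and 0 lower, and 2, 2, 3 and 3 read higher and 0, 0, 0 and 2 lower with an array left out. Cdk1 (0.31 ± 0.48, adjusted p = 0.882), Ccna2 (0.14 ± 0.18, adjusted p = 0.848), Pttg1 (-0.29 ± 0.14) and Bub1b (-0.47 ± 0.23) had p above 0.05. The other probe sets of Pttg1 differed by -1.50, with p under 0.05, and by -0.36. Of 45 DNA replication genes 0 read higher and 1 lower, Pold1 (-0.83 ± 0.33), with a median of -0.14; Rfc4 (-0.81 ± 0.43), Rpa3 (0.46 ± 0.25) and Orc2 (0.30 ± 0.15) had adjusted p of 0.601, 0.61 and 0.588. With an array left out, 1, 0, 0 and 0 of the 45 read higher and 0, 0, 0 and 1 lower. Those calls were Gins3 and Gins2, in that order, and did not include Pold1. At 24 h the median was 0.66.

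Of 37 cytosolic ribosomal protein genes, 34 had a positive difference (7418 of all 14450 genes did) and 24 lay above wild type on both null-labelled arrays (24.2% of all genes). Their median was 0.11, with 2 at p under 0.05, Rpsa (0.30 ± 0.12) and Rpl35 (0.31 ± 0.12); Rps15 (0.32 ± 0.14) and Rpl22 (0.24 ± 0.11) followed. Of 38 genes of ribosome biogenesis 3 read higher and 0 lower, with a median of 0.15. Nop58, a core protein of box C/D particles, read 6.02 and 6.64 in wild type against 7.42 and 7.14 in null-labelled liver (0.95 ± 0.30, adjusted p = 0.456). Nop14 differed by 0.61 ± 0.19, Rrs1 by 0.47 ± 0.16 and Gnl3 by 0.70 ± 0.30 (adjusted p = 0.539). With any 1 of the 4 arrays left out, 0 ribosomal protein genes had p under 0.05, and 0, 4, 0 and 4 biogenesis genes read higher. Without null-labelled array 1 the medians were 0.11 and 0.14, and Rrs1 differed by 0.27. Of 56 subunits of oxidative phosphorylation 38 had a negative difference (7032 of all genes did), with a median of -0.05 and 1 at p under 0.05, Uqcrfs1 (-0.30 ± 0.12), a call lost with any 1 of the arrays left out.

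The background of 4.87% higher and 4.75% lower also applies to the counts among relatives, partners and pathway genes of Tob1. Its relative Tob2 read 8.49 and 8.05 in wild type against 8.79 and 8.63 in null-labelled liver (0.44 ± 0.24, adjusted p = 0.611), Btg1 differed by -0.21 ± 0.16 and Btg2 by -0.26 ± 0.99. Of 15 deadenylase genes 1 read higher and 0 lower (median 0.08): the scaffold subunit Cnot3, at 6.80 and 7.01 against 7.43 and 7.42 (0.52 ± 0.16, adjusted p = 0.433), whose other probe set differed by -0.24. The catalytic subunits that bind Tob1, Cnot7 (0.20 ± 0.11, adjusted p = 0.629) and Cnot8 (-0.18 ± 0.19, adjusted p = 0.807), did not reach that threshold; nor did Pan3 (0.34 ± 0.15), Cnot11 (-0.29 ± 0.14) and the poly(A) binding protein Pabpc1 (0.35 ± 0.17). Both other probe sets of Cnot11 read lower at p under 0.05 (-0.57 and -0.89). Those of Pan3 differed by 0.17, 0.45 and -0.64, the last at p under 0.05 and against the sign of the brightest. The 95% interval of Cnot7 was -0.08 to 0.48, and its other probe sets differed by -0.49 and -0.11. Leaving out the arrays in turn, 0, 1, 0 and 0 deadenylase genes read higher. Of 32 genes of BMP and TGF-beta signalling 2 read higher and 2 lower (median 0.0017). The ligand Bmp6, which liver endothelium secretes to set hepcidin, read 5.06 and 4.57 against 4.37 and 3.39 (-0.94 ± 0.35; -1.43 without null-labelled array 1 and -0.45 without array 2), and its co-receptor Hjv on hepatocytes read 9.34 and 9.16 against 8.43 and 8.71 (-0.68 ± 0.17, adjusted p = 0.398). The activin subunit Inhbe (0.83 ± 0.21) and Smad3 (0.64 ± 0.17) read higher, but the other probe sets of Smad3 differed by -0.53 and -0.38. In this list 2 read higher in every leave-out and 1, 2, 2 and 1 lower.

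Among 8 markers of endothelium, 0 read higher and 4 lower at p under 0.05 (4.87% and 4.75% of all genes). Both null-labelled arrays lay below both wild type arrays for 7 (23.9% of all genes), and the median was -0.44. Pecam1, an adhesion protein of all endothelium, read 4.68 and 4.42 in wild type against 3.66 and 3.91 in null-labelled liver (-0.76 ± 0.20, adjusted p = 0.406). The scavenger receptors of sinusoidal cells Stab2 (7.67 and 7.55 against 6.83 and 7.12) and Stab1 (6.48 and 6.46 against 6.12 and 6.18) differed by -0.63 ± 0.23 and -0.32 ± 0.13, and Oit3 by -0.67 ± 0.23. Lyve1 (0.08 ± 0.63) overlapped between the groups. The summed linear signal of the 8 was 1477 to 1521 in wild type and 1004 to 1239 in the null-labelled arrays. In whole liver RNA, fewer endothelial cells and less of these transcripts per cell cannot be told apart. With each array left out in turn, 0, 2, 0 and 3 of the 8 read lower. Without null-labelled array 1 the median was -0.35 and Oit3 differed by -0.40, and at 24 h the median was 0.07.

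Other cell types were uneven. Of 11 Kupffer cell and leucocyte markers 0 read higher and 2 lower, with a median of 0.02: Cd68, a macrophage lysosomal protein, read 5.77 and 5.70 in wild type against 4.97 and 4.64 in null-labelled liver (-0.93 ± 0.14, adjusted p = 0.27), and Vsig4 differed by -0.53 ± 0.21. With an array left out 1 gene of the list read lower each time. The pan-leucocyte Ptprc (0.12 ± 0.12) and the Kupffer cell lectin Clec4f (-0.31 ± 0.23) had p above 0.05, and the summed signal of the list overlapped between the groups, at 2163 to 2401 and 2169 to 2204. Neither stellate cell and matrix markers (0 of 10; Reln -0.40 ± 0.25, Col1a1 -0.47 ± 0.34, Rgs5 -0.13 ± 0.20, Col3a1 0.09 ± 0.17) nor ductal markers (0 of 4; Sox9 -0.76 ± 0.38, Epcam -0.61 ± 0.29, Krt19 -0.32 ± 0.42, Krt7 -0.30 ± 0.54) held a gene at p under 0.05. The other probe set of Col1a1, however, read lower at that threshold (-1.12). Reln passed it without null-labelled array 1, and Krt19 and Krt7 without null-labelled array 2. The hepatocyte transcription factors Foxa1 (7.82 and 7.77 against 8.42 and 8.61; 0.71 ± 0.16, adjusted p = 0.387) and Foxa2 (0.54 ± 0.12, adjusted p = 0.387) read higher. Onecut1 (1.35 ± 0.58) and Hnf4a (0.27 ± 0.13) had adjusted p of 0.535 and 0.571; the other probe set of Onecut1 differed by 1.13, at p under 0.05. In the acute phase list, 2 of 28 read higher and 2 lower, against 4.87% and 4.75% of all genes. Lcn2, an iron-sequestering protein, read 4.98 and 5.05 against 6.62 and 5.92 (1.26 ± 0.28, adjusted p = 0.387) and Orm3 differed by 0.58 ± 0.20, against -0.32 ± 0.12 for the abundant Orm1 and -0.33 ± 0.11 for Lrg1. Orm3 differed by 0.38 without null-labelled array 1, and the leave-outs gave 2, 2, 1 and 4 higher and 0, 1, 0 and 2 lower. Among 9 metallothionein and zinc transport genes, the exporter Slc30a10 read lower (-0.69 ± 0.19, adjusted p = 0.415); Slc30a1 differed by -0.24 ± 0.18, Mtf1 by 0.18 ± 0.14, and Mt2 by 1.09 ± 0.94, with array 1 alone high. The leave-outs gave 0, 0, 0 and 2 higher and 0, 1, 1 and 0 lower.

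The same genotypes 24 h after hepatectomy, on 4 other arrays of other animals, gave a second reading of these differences. The comparisons share no arrays but share each gene's estimate of spread. At 24 h, 1695 genes had p under 0.05 (11.7%). Of the 1390 genes at 0 h, 848 (61.0%) had the same sign at 24 h, against 54.2% of all genes. Of the 1390, 230 (16.5%) had the same sign and p under 0.05, against 7.26% of all genes. Another 75 had the opposite sign and p under 0.05 at 24 h, against 646 of all 14450 genes. As the spread is shared, genes called at 0 h are likelier to be called at 24 h in either direction. Across all genes the differences at the 2 times had a Pearson r of 0.148, a description over genes that are not independent. Null-labelled array 1 carried high Sult2a2 and Sult3a1 at either time, and the part of this in the agreement was not tested.

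Of the 12 leading higher genes 9 kept their sign and 7 also had p under 0.05 at 24 h. Prelid2 (3.89), Hddc3 (3.0), Tmem51 (1.71), Cyp2b10 (1.22), Ciart (1.39), Lratd2 (1.09) and Rad1 (0.52) were those genes. Another 3, Dbp (-0.58), Pramel32 (-0.69) and Apoa4 (-0.88), had the opposite sign with p under 0.05 at 24 h. Of the 12 lower genes 6 kept their sign and 5 had p under 0.05: Igfbp1 (-1.47), Cystm1 (-1.13), Cyb561 (-2.85), Kdf1 (-0.86) and Cep83os (-2.0). Opposite sign and p under 0.05 at 24 h held for 2 of them, Il21r (1.42) and Tnfaip8 (0.40). Moxd1 read lower at both times, -3.09 ± 0.91 and -4.65. Some genes outside these 2 sets also stood on opposite sides with p under 0.05 at each time: Cish differed by -1.47 at 24 h, Inhbe by -1.34 and Cd68 by 0.59. The change of the genotype difference between the times did not pass an adjusted p under 0.05 for any gene named here, the smallest being 0.301.

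**Figure D5:**
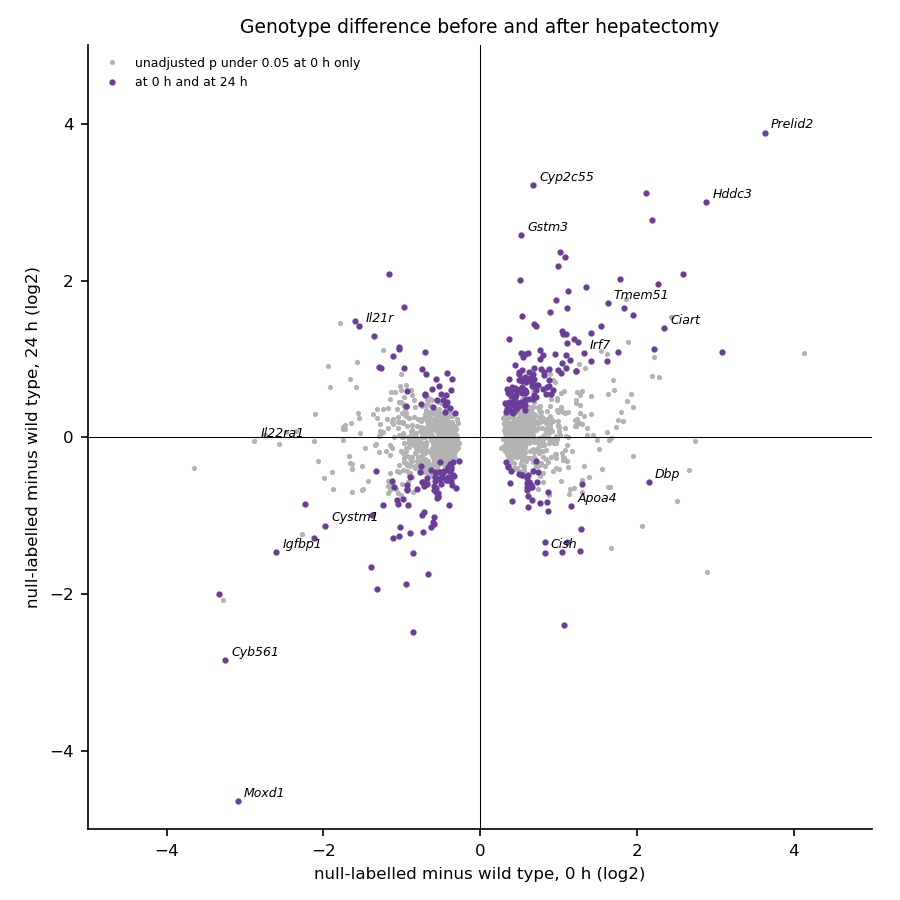
Log2 difference, null-labelled minus wild type, at 0 h (x axis) and 24 h after hepatectomy (y axis) for the 1390 genes with unadjusted p under 0.05 at 0 h (points); violet points also have p under 0.05 at 24 h. Prelid2, Hddc3 and Tmem51 lie far out in the upper right and Cyb561 and Moxd1 in the lower left, while Dbp, Apoa4 and Cish lie below the horizontal axis at 24 h.

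Genes beside Tob1 on its chromosome were counted apart. Among the 10 tested genes on each side 3 of 20 had p under 0.05 (15% against 9.62% of all genes). Among 25 on each side the count was 8 of 50 (16%), among 50 on each side 15 of 100 (15%). Among 100 on each side it was 26 of 200 (13%). The order was read from RefSeq (GRCm38.p6), whose build need not be that of the array. The nearest 3 were Cox11, Abcc3 and Rsad1. Of the 100 genes within 50 on each side, Ints2, Dhx40, Ypel2, 1110028F11Rik and Pctp had the same sign and p under 0.05 at both times. That is 5 of 100, against 230 of all 14450 genes.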

How the data were processed

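Liver RNA of 8 pools of 3 mice was hybridised to 8 Affymetrix arrays. The deposited table holds log2 signals, as read from the values; no source used here names the algorithm. After removal of 64 controls from 45101 probe sets, quantile normalisation was applied. Probe sets above the 40th percentile in at least 2 arrays (limit 3.60) were kept, and of the 34945 with exactly 1 symbol the one with the highest mean stood for each gene (14450 genes). Another 932 had several symbols and 9160 none; those of both kinds that passed the filter, 5008, were tested apart, with 0 adjusted calls (limma; 389, or 7.77%, at p under 0.05). The model, in limma 3.58.1 under R 4.3.3, gave each of 4 groups a mean over 8 arrays (4 residual and 2.01 prior degrees of freedom), two-sided, Benjamini-Hochberg adjusted. The number of arrays limits precision.

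Named genes were the 12 with the smallest p in each direction, the 6 largest differences in each direction among genes above the limit in both groups with p under 0.05, up to 4 per list by p, and Tob1, its family, Cnot7, Cnot8, Cdk1, Ccna2, Ccnd1 and Ccne1; Btg3 was not among the genes tested. Predicted genes were skipped. The members and the 41 lists were chosen with earlier results of these data known. Same-numbered arrays did not pair (correlation of their deviations -0.11 at 0 h). The procedure was tested on simulated data. Alternatives covered normalisation, filter, probe set, prior, array weights, replicate block, damping, the 4 arrays at 0 h alone and leaving out each array.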

Additional observations from a re-analysis of the deposited data

How the results depend on the processing

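The count of 0 genes at an adjusted p under 0.05 became 3 with the deposited values, 2 with median centring, 1 without a filter, 8 with a filter at the 60th percentile, 13 with a trended and robust prior, 5 with array weights, 7 after damping of low values and 2 at an adjusted p under 0.1. It stayed 0 with the mean over probe sets, the 4 arrays at 0 h alone and each array left out. Igfbp1 was called in 6 of the 19 alternatives, Prelid2, Cystm1 and Il22ra1 in 4. Leaving out each array gave 379 to 791 higher and 368 to 764 lower genes at an unadjusted p under 0.05, and 55.9% to 62.4% with the same sign at 24 h; that share was 57.8% without a filter and 64.2% at the 60th percentile. With the replicate number as a block, 0 genes passed, and 602 read higher and 586 lower at an unadjusted p; with crossed numbers, added after seeing the data, the counts were 0, 715 and 705. The block changed no adjusted call.

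Among named genes, 8 changed sign under some alternative, Rgs5 under 2. Averaging probe sets turned Tob1 to -0.34, Smad3 to -0.089 and Cnot7 to -0.13. Leaving out each array moved Krt19 from -0.94 to 0.31, Krt7 from -1.14 to 0.53 and Mt2 from -0.30 to 2.47, each reversed without null-labelled array 1. It moved Rgs5 from -0.33 to 0.080 and Col3a1 from -0.053 to 0.24, reversed without wild type array 2. Rgs5 was 0.012 without null-labelled array 2. The adipose list had no member at the 60th percentile. The share of same signs has no value from the 4 arrays at 0 h alone. Genes near the limit of 3.60 have the least certain folds.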
